A study of Rattus norvegicus with 16 samples.

Results

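The dorsal root ganglia (DRGs) of rats carrying a tumor in the tibia were compared between the first day and the end of the first week after implantation. The comparison holds 6 of the 16 samples of the series. They are 3 of the 4 samples taken on day 7 after tumor cell implantation (TCI), replicates 1, 2 and 4, and 3 of the 4 samples taken on day 1, replicates 1, 3 and 4, chosen by their labels. Day 1 replicate 2 and day 7 replicate 3, which the study left out for low correlation with the other samples, are given apart. The animals were adult female Sprague-Dawley rats, and in both groups Walker 256 rat mammary carcinoma cells had been injected into the left tibia. The L3-L5 ganglia of the injected side of 1 rat were pooled as 1 sample, so that all samples come from different animals. Both groups carry the tumor cells and the surgery. The sham rats of the series were sampled on day 14 only and are not used here, and therefore the growth of the tumor and the days since surgery cannot be told apart in what follows.

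A DRG holds the cell bodies of the sensory neurons of a spinal nerve, each wrapped by satellite glia, together with Schwann cells around the axons, fibroblasts, vessels, a connective sheath and resident macrophages. Injury or inflammation in the field of a nerve is known to draw further macrophages and lymphocytes into the ganglion, where chemokines and interferons carry signals between cells. Interferon-gamma, a product of activated T and natural killer cells, induces chemokines of the CXCL9 to CXCL11 group, the proteins that load peptides onto MHC molecules, and guanylate-binding proteins. RNA from a whole ganglion mixes these cell types, so that a lower level of a gene can come from fewer cells of a type or from less RNA per cell, and these cannot be told apart.

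The files give FPKM, that is fragments scaled to the length of the transcript and to the mapped fragments of the sample, for 21021 genes. Those that reached 1 FPKM in 3 or more of the 6 samples, 13645 in number, were tested. Levels below are in FPKM, and each fold change is the difference of the group means of log2(FPKM + 1), day 7 minus day 1, with its standard error (SE). The added 1 draws the fold changes of weakly expressed genes toward 0. Tests were made with limma over all tested genes, with p-values adjusted by the Benjamini-Hochberg method. A gene is said to have risen or fallen where its adjusted p was at most 0.05, and it is called where the fold change also reached 1 on the log2 scale. Across the tested genes the samples correlated, on the log2(FPKM + 1) scale, with a Pearson's r between 0.992 and 0.993 within day 1, between 0.986 and 0.992 within day 7, and between 0.962 and 0.974 for the 9 pairs across the days. The left-out day 7 sample had r of 0.947 to 0.951 with the others of its day. The left-out day 1 sample had a median r of 0.991 with the others of its day, near theirs with each other. Neuronal and Schwann cell genes were high in all 8 samples, as the label of the tissue requires, with Prph, the peripherin of sensory neurons, at 783 FPKM or more and Mbp, the myelin basic protein gene, at 899.84 FPKM or more. Read totals are not given with the FPKM. The smallest values of 61 barely expressed genes put the depth of these 8 samples between 0.932 and 1.05 of the median sample. This is a rough estimate, since only 10 to 21 genes served for each sample and the values have 2 decimals.

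Of the 13645 genes tested, 486 (3.56%) were called higher on day 7 and 8 (0.0586%) were called lower. Without a limit on the fold change, 1545 genes (11.3%) rose and 278 (2.04%) fell. The median fold change of all tested genes was 0.04 on the log2 scale. The rises were also the larger changes, with a median of 1.56 over the genes called higher, 138 genes at 2 or more and 32 at 3 or more. The genes that fell had a median of -0.33, and 270 of them were below the limit in size. At the cut-offs the study used, an adjusted p of at most 0.001 and a fold change of at least 1, 242 genes (1.77%) were higher and 0 (0%) lower. Beside these 0 lower genes stand the 8 at the looser adjusted p and 846 that were lower at an unadjusted p under 0.05 in limma. The samples of the 2 days did not overlap for 3218 genes (23.6%) that were higher on day 7 and for 1134 (8.31%) that were lower. With the same genes tested and each sample left out in turn, the count called higher lay between 435 and 550, and 454 of the 486 genes passed each time. The filter takes part in this, since 296 of the tested genes met it through the day 7 samples alone. Where the filter was set anew, leaving out day 7 replicate 1 or 2 gave 283 and 260 genes. The genes that passed as lower numbered between 95 and 415 with the same genes tested, and 64 of the 278 passed each time. Without day 7 replicate 4 they were 415, and without each of the others between 95, for day 1 replicate 4, and 166. The genes that rose were 990 without day 1 replicate 3 and 1003 without day 1 replicate 4. Centring each sample on its median shifted the median fold change from 0.04 to -0.06 and changed the split of the genes that passed from 1545 higher and 278 lower to 1086 higher and 944 lower, while the called genes stood at 421 higher and 16 lower.

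**Figure D1:**
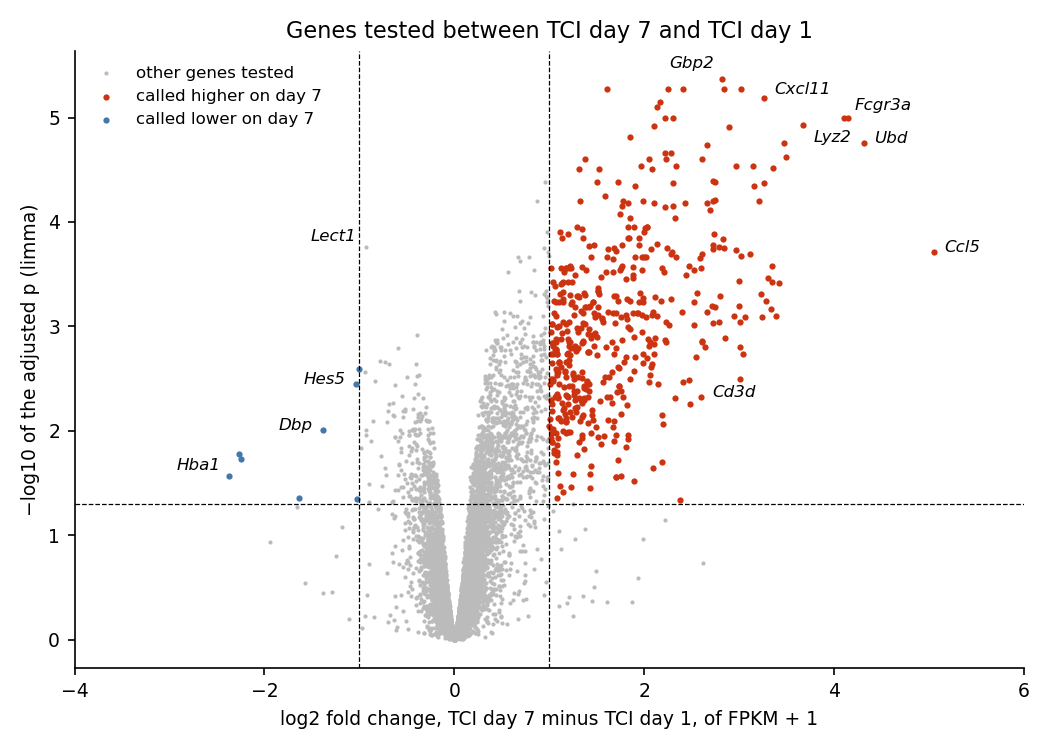
Fold change (x axis, log2 of FPKM + 1, day 7 minus day 1) against the adjusted p of limma (y axis, −log10) for the 13645 genes tested, with dashed lines at an adjusted p of 0.05 and fold changes of 1 and -1. The 486 genes called higher spread to a fold change of 5.05, and the 8 called lower reach -2.38.

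The left-out pair gives a look at samples that did not enter the fit. Of the 486 genes called higher, 481 (99.0%) were higher in the left-out day 7 sample than in the left-out day 1 sample, against 43.8% of all tested genes. All 8 genes called lower were lower in it, as were 7644 of the 13645 tested genes. Of the 1545 genes that rose, 88.5% were higher in it, and of the 278 that fell, 252 were lower. Muscle genes summed to 28741 FPKM in the left-out day 7 sample, and their part in these values was not tested. The median difference of the left-out pair over the 486 genes was 1.39 on the log2 scale. The 5 exceptions are named because they are few, and were seen before they were chosen. They were the ribosomal protein gene Rpl9, the tight junction gene Cldn1, the transcription factor gene Foxd1, Cideb of lipid droplets and the natural killer cell receptor gene Ly49si1.

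The largest rise was that of Ccl5, a chemokine that T cells and natural killer cells release and that draws in further leukocytes. Its level was 1.08, 1.00 and 0.68 FPKM in the day 1 samples and 63.4, 106.7 and 35.8 FPKM in the day 7 samples, a ratio of the means of 74.6. The left-out samples had 1.42 FPKM on day 1 and 18.8 FPKM on day 7. The days did not overlap, and the fold change was 5.05 on the log2 scale (SE 0.346, limma adjusted p = 0.000195). Ubd, a ubiquitin-like protein known to be induced by interferon-gamma and tumor necrosis factor, was at 1.36, 0.84 and 0.86 FPKM on day 1 and at 49.7, 33.3 and 35.9 FPKM on day 7. Its fold change was 4.32 (SE 0.164, adjusted p = 1.76e-05). Fcgr3a, the low-affinity IgG receptor of natural killer cells and macrophages, was below 1 FPKM in each day 1 sample and reached 19.2, 25.3 and 24.5 FPKM on day 7, with a fold change of 4.11.

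Lysozyme, the bacterial cell wall enzyme of macrophages and granulocytes, was the most abundant of the 10 largest rises. Lyz2 went from 48.9, 47.0 and 55.8 FPKM to 657, 780 and 550 FPKM, with a fold change of 3.67 (SE 0.128, adjusted p = 1.18e-05). Its near copy Lyc2 went from 3.40, 5.08 and 4.59 FPKM to 87.4, 108 and 85.6 FPKM, and reads may be split between these copies. C3, the central component of complement, was at 0.79, 0.51 and 0.66 FPKM on day 1 and at 20.3, 13.9 and 19.3 FPKM on day 7. The left-out day 7 sample stood above these with 45.4 FPKM. The other genes of the 10 were Cxcl9 and Cxcl13, chemokines for activated T cells and for B cells, Nkg7 of cytotoxic granules, and LOC100910270, a locus with no name in the tables. Their fold changes were 3.47, 3.39, 3.43 and 3.36. Nkg7 was listed at 0, 0.15 and 0.05 FPKM on day 1 and at 10.2, 16.7 and 6.58 FPKM on day 7.

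**Figure D2:**
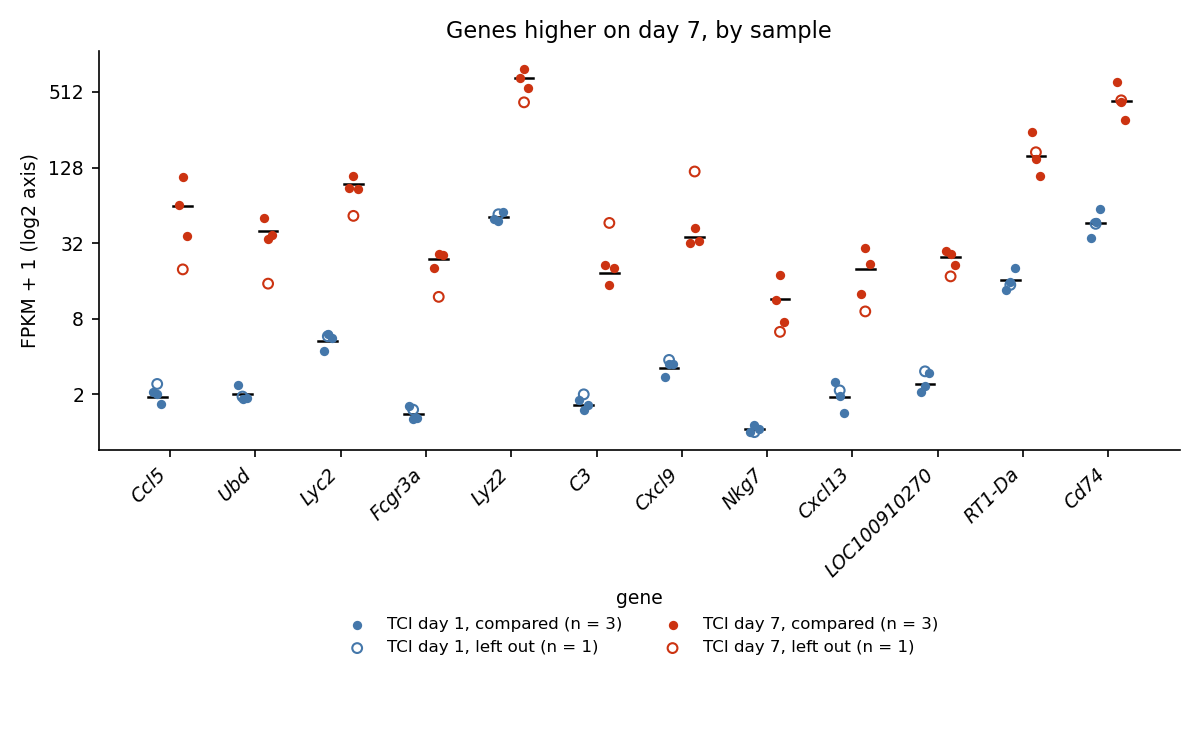
FPKM + 1 on a log2 axis for the 10 genes of the largest rise and for the MHC class II genes RT1-Da and Cd74, with the 3 compared samples of each day as filled points, the left-out sample as an open point and a bar at the mean of log2(FPKM + 1) of the 3. In each gene all 4 day 7 samples sit above all 4 day 1 samples, and in Ccl5, Ubd, Lyc2 and Fcgr3a the left-out day 7 sample is the lowest of its day while in C3 and Cxcl9 it is the highest.

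Genes of macrophages and other myeloid cells rose as a block. The list has 25 members, and 8 of them met the filter through the day 7 samples alone and so had to be higher there. The counts include these 8 and are a description, since the list was chosen with earlier results of these data known. The 25 all rose and were called (100%, against 3.56% of all tested genes), also with each sample left out and the same genes tested, with fold changes from 1.22 to 4.15 and a median of 2.08. Their summed level was 117 to 132 FPKM on day 1 and 1016 to 1400 FPKM on day 7, and 869 FPKM in the left-out day 7 sample. Tyrobp, the adaptor that carries the signals of many myeloid receptors, went from 4.06, 5.64 and 4.68 FPKM to 45.5, 50.3 and 37.6 FPKM, with a fold change of 2.97 (SE 0.131, adjusted p = 2.92e-05). Further members, named after their values were seen, were Cd68 of lysosomes (2.83), the microglia and macrophage gene Aif1 (2.34), the receptor of colony-stimulating factor 1, Csf1r (2.14), the fractalkine receptor Cx3cr1 (1.63), the scavenger receptor Cd163 (1.47) and Trem2 (1.35).

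T cell and cytotoxic cell genes were low on day 1, with the exception of Thy1 and Cd4. Of 20 T cell genes, 13 met the filter and 12 of these rose and were called (92.3%). Of 15 listed cytotoxic cell genes, 7 met the filter and 7 rose and were called (100%). Over all tested genes 11.3% rose and 3.56% were called higher. Of the tested genes, 11 T cell and 6 cytotoxic cell genes met the filter through the day 7 samples alone and so had to be higher there, and their counts are given as a description only. Thy1, a surface protein that neurons share with T cells, was the tested T cell gene that did not pass, with means of 1018 FPKM on day 1 and 1004 FPKM on day 7 (fold change -0.03), and it made up most of the summed level of the list, 1004 to 1047 FPKM on day 1 and 997 to 1182 FPKM on day 7. Cd4, which macrophages also make, went from a mean of 5.89 FPKM to 23.2 FPKM. Cd3e, a chain of the T cell receptor complex, was at 0.04, 0.02 and 0 FPKM on day 1 and at 6.94, 11.6 and 4.45 FPKM on day 7, with a fold change of 3.002 (SE 0.272, adjusted p = 0.000633). Cd3d was listed at 0 in all 4 day 1 samples and at 5.65, 9.46 and 2.23 FPKM on day 7. Cd8a, the coreceptor of cytotoxic T cells, reached 11.95, 13.7 and 5.03 FPKM from 0.18 FPKM or less. For each of Cd8a, Cd3e, Cd3d, Cd2, Nkg7, Ctsw and Prf1, the pore-forming perforin, replicate 4 was the lowest of the 3 compared day 7 samples and the left-out sample was lower still. Perforin was at 5.02, 9.63 and 4.23 FPKM in the compared samples and at 2.91 FPKM in the left-out one.

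Few markers of other white cells met the filter. Among 9 listed B cell genes, only Cd22 met the filter, at 2.78 to 3.88 FPKM on day 1 and 3.46 to 3.93 FPKM on day 7 (fold change 0.14, adjusted p = 0.473). Of 12 neutrophil genes 2 met it, both through the day 7 samples alone, so that they had to be higher there. S100a9, a calcium-binding protein that neutrophils and monocytes share, was at 0.18, 0.07 and 0.27 FPKM on day 1 and at 2.11, 2.59 and 10.1 FPKM on day 7, the last of these being day 7 replicate 4 (adjusted p = 0.0225, and 0.0657 to 0.0796 without any of the day 1 samples in limma). Kit, the only one of 10 mast cell genes to meet the filter, which sensory neurons also express, had a fold change of -0.02 (adjusted p = 0.899).

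Antigen presentation genes were among the most abundant that rose. MHC class II molecules show peptides to CD4+ T cells and are made by macrophages and other presenting cells. Of 13 class II pathway genes that met the filter, 12 rose (92.3%, against 11.3% of all tested genes) and 10 were called (76.9%, against 3.56%), with a median of 2.75. Of the 13, 3 met the filter through day 7 alone. Cd74, the invariant chain, went from 34.1, 45.8 and 58.4 FPKM to 615, 428 and 307 FPKM, with a fold change of 3.24 (SE 0.274, adjusted p = 0.000490). RT1-Da, a class II alpha chain, went from 12.7, 14.7 and 19.2 FPKM to 246, 149 and 108 FPKM, and RT1-Bb, a class II beta chain, had a fold change of 3.35. In the class II genes RT1-Da, RT1-Bb and Cd74, replicate 1 was the highest of the 3 compared day 7 samples and the days did not overlap. The 1 that did not pass was RT1-DOa, with a fold change of 1.04 (adjusted p = 0.0588).

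MHC class I molecules show peptides from inside the cell to CD8+ T cells, after the immunoproteasome cuts them and the TAP transporter moves them. All 19 class I pathway genes that met the filter rose (against 11.3% of all tested genes) and 13 were called (68.4%, against 3.56%), with a median of 1.60, and 1 of them met the filter through day 7 alone. The immunoproteasome subunits Psmb9 and Psmb8 had fold changes of 2.84 and 2.74, and Psmb9 went from 4.71 to 5 FPKM to 41.97, 43.4 and 36.7 FPKM (SE 0.0717, adjusted p = 5.34e-06). The left-out day 7 sample was higher than the others in both, with 83.6 FPKM for Psmb9 and 72.8 FPKM for Psmb8. RT1-A2, a class I heavy chain, went from 52.4, 29.8 and 26.8 FPKM to 376, 219 and 251 FPKM. RT1 genes are near copies of each other, so that their reads may be shared and the value of a single RT1 gene is uncertain.

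Interferon response genes rose in both sets. The 15 interferon-gamma genes that met the filter, 2 of them through day 7 alone, all rose (against 11.3% of all tested genes) and 13 were called (86.7%, against 3.56%), with a median of 2.08. Of 24 type I interferon genes, 1 of which met the filter through day 7 alone, 22 rose (91.7%) and 10 were called (41.7%), with a median of 0.94. The count of type I genes that rose was 13 without day 1 replicate 1 and 8 of 25 with all 4 groups in the fit. The difference between the lists was not tested, and the lists overlap in biology, since both kinds of interferon signal through shared transcription factors. Gbp2, a guanylate-binding GTPase of cell defense, went from 8.68, 7.98 and 8.27 FPKM to 66.2, 67.4 and 60.6 FPKM, with a fold change of 2.82 (SE 0.0584, adjusted p = 4.26e-06). Cxcl10 went from 4.30, 3.70 and 5.66 FPKM to 33.7, 29.2 and 44.95 FPKM, with a fold change of 2.73. Bst2, the tetherin that holds budding virus at the cell surface, went from 19.2, 12.1 and 17.5 FPKM to 70.8, 90.8 and 73.1 FPKM, with a fold change of 2.21 (SE 0.170, adjusted p = 0.000301). Mx1, Rsad2 and Isg15, antiviral genes of the type I list, had fold changes of 2.09, 1.95 and 1.68. Ifng itself and most interferon genes did not meet the filter.

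The promoters of genes in these lists are shown because interferon signals reach them through short DNA elements. The interferon-stimulated response element was searched on both strands as GAAA, any 2 bases and GAAA again, in the 300 bases from 250 before to 50 after each RefSeq start on GRCr8. It is in 3.92% of all 33469 promoters. Counted per gene, with a gene counted if any of its promoters holds the letters, it is in 3.15% of the 10710 tested genes that matched a promoter by gene ID, in 59 of 347 matched genes called higher (17.0%), in 9 of 15 interferon-gamma genes, in 12 of 16 type I genes, in 9 of 17 class I genes and in 1 of 11 class II genes. It is in 3 of the 197 matched genes that fell (1.52%). Such a match is a description of letters and not a bound site. The promoters of Gbp2 (chr2:234005477-234005776, plus strand), Cxcl10 (chr14:15988816-15989115, plus strand) and Bst2 (chr16:18254918-18255217, minus strand) follow 5′ to 3′, with the matches in capitals. In Bst2 a pair of matches overlap each other and a match to TTCNNNGAA, the gamma-activated sequence, so that they appear as 1 run.
Gbp2: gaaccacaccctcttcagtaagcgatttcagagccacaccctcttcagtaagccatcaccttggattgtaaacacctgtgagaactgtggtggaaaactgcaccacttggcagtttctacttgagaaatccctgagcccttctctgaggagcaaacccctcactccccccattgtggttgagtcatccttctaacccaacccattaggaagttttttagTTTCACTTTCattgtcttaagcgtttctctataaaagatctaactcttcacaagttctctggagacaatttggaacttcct
Cxcl10: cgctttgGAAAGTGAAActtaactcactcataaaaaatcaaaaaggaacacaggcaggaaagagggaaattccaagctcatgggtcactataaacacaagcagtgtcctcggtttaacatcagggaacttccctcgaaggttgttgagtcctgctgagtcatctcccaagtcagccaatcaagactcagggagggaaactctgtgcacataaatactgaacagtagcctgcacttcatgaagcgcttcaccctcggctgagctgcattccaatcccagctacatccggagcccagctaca
Bst2: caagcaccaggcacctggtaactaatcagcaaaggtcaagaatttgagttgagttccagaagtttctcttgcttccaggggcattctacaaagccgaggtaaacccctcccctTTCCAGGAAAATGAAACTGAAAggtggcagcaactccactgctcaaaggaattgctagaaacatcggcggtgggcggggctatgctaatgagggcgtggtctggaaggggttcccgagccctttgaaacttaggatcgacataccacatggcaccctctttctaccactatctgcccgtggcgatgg
The match begins 31 bases before the start in Gbp2 and 243 bases before it in Cxcl10, and the matches in Bst2 begin 131 and 125 bases before it. The gamma-activated sequence is in 8.87% of all promoters. Per gene, it is in 7.15% of the matched tested genes, in 11.5% of those called higher, in 8 of the 15 interferon-gamma genes, in 5 of 16 type I genes, in 2 of 17 class I genes and in 0 of 11 class II genes.

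Complement, which tags cells and debris for uptake, rose in most of its parts. Of 20 genes that met the filter, 17 rose and were called (85%, against 3.56%), with a median of 2.09, and 4 of the 20 met the filter through day 7 alone. C1qa and C1qb, chains of the first component made by macrophages, went from 8.96, 9.67 and 12.9 FPKM to 84.0, 118 and 102 FPKM and from 6.01, 5.57 and 8.67 FPKM to 62.2, 80.0 and 76.8 FPKM, with fold changes of 3.16 and 3.27. C2 had a fold change of 3.21. The regulators Cfi, Cd55 and Cd59 had fold changes of 0.10, -0.04 and -0.05 and did not pass. Proteases of the lysosome were mixed. Of 15 cathepsins and their inhibitors 10 rose (66.7%, against 11.3%) and 4 were called. Of the 4, Ctsw of cytotoxic cells (3.34) and the inhibitor gene Cst7 (2.10) met the filter through day 7 alone, and the others were Ctss of presenting cells (2.75) and Ctsc (1.35), while Ctsb, Ctsd and Ctsl, chosen after their values were seen, had fold changes of 0.22, 0.07 and 0.14 and did not pass.

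**Figure D3:**
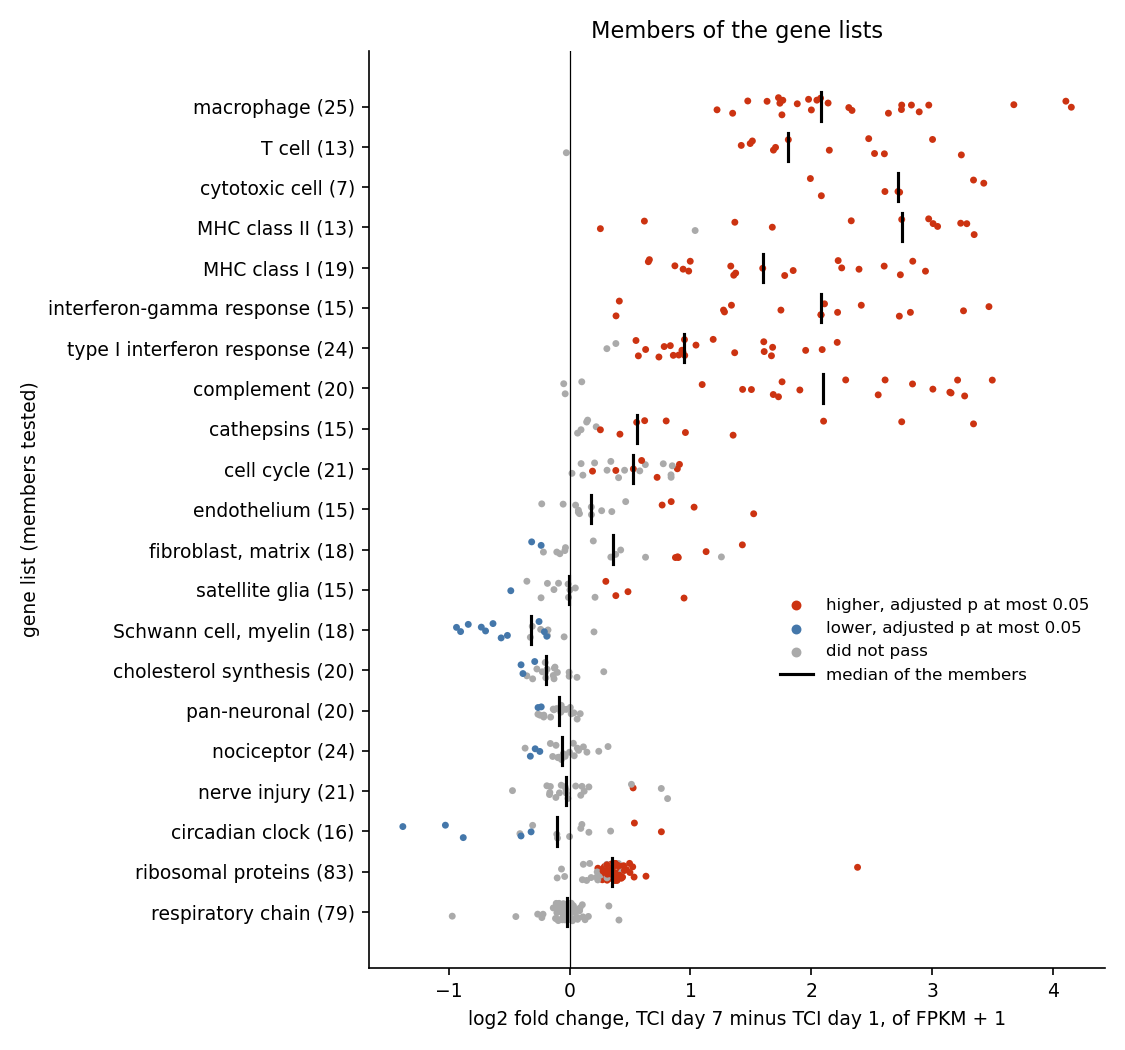
Fold change of each tested member (x axis, log2 of FPKM + 1, day 7 minus day 1) in 21 gene lists, with the number tested in brackets, points colored by the test at an adjusted p of 0.05 and a bar at the median. The immune lists lie to the right, with medians from 0.94 to 2.75 for the first 8. The pan-neuronal and nociceptor lists have medians of -0.09 and -0.06.

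Cytokines, their receptors and ion channels were the gene classes the study set out to follow. Of 212 cytokine and receptor genes in the tables, 96 met the filter. Of these 59 rose (61.5%, against 11.3% of all tested genes), 31 were called (32.3%, against 3.56%) and 2 fell (2.08%, near the 2.04% of all tested genes), with a median of 0.58. Of the 96, 22 met the filter through day 7 alone, and with the same genes tested and a sample left out between 49 and 60 rose. Chemokines led, with 17 of 20 risen, 13 of them called and a median of 1.42. Cxcl11 was at 0.32, 0.15 and 0.14 FPKM on day 1 and at 10.2, 11.4 and 9.92 FPKM on day 7, with a fold change of 3.26 (SE 0.0943, adjusted p = 6.50e-06). Cxcl13 was at 1.5, 0.94 and 0.43 FPKM and then at 11.6, 28.4 and 20.8 FPKM. Among the 8 chemokine receptors, 5 rose. Named here after their values were seen are Cxcr3, the receptor of CXCL9 to CXCL11 (2.19), and Cxcr4, which fell (-0.43). Of 12 interleukins 6 rose, with Il18 (1.75) and its binding protein Il18bp (2.05) in the list of receptors, and Il1b at 0.81. Of 13 tumor necrosis factor receptors 6 rose and 1 fell. The latter was Ngfr, the low-affinity neurotrophin receptor of Schwann cells and neurons and the most abundant gene of the class, at 269, 279 and 258 FPKM and then at 235, 231 and 211 FPKM (fold change -0.25, SE 0.0581, adjusted p = 0.0300). The adjusted p of Ngfr was 0.0527 to 0.119 without each sample but day 7 replicate 4.

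Ion channel genes moved little. Of 216 in the tables, 148 met the filter, 11 rose (7.43%, against 11.3% of all tested genes) and 8 fell (5.41%, against 2.04%), with a median of -0.03 and 1 called gene. No sodium channel gene passed among 11. The called gene was Kcnj13, an inward rectifier potassium channel known from epithelia such as the choroid plexus, at 0.91, 0.62 and 0.72 FPKM on day 1 and 2.45, 3.35 and 2.72 FPKM on day 7 (fold change 1.13, SE 0.117, adjusted p = 0.00115). Kcnk6, a potassium leak channel, Piezo1, a mechanically gated channel of vessels and blood cells, and Trpm2, a calcium channel of myeloid cells and neurons, followed with 0.84, 0.79 and 0.73. The other risen genes included the purine receptor P2rx4 (0.59) and Kcnn4 (0.55), named after their values were seen, and each of these passed without 1 of the 6 samples and not without the other five, with an adjusted p of up to 0.130 and 0.132. Of the 8 that fell, Kcnj10, the potassium channel of satellite glia, had the largest change, from 31.0, 27.4 and 27.1 FPKM to 20.9, 23.2 and 16.5 FPKM (-0.49, adjusted p = 0.0385). Trpa1, the irritant receptor of nociceptors, went from 23.4, 23.1 and 19.7 FPKM to 17.2, 18.4 and 16.5 FPKM (-0.32, adjusted p = 0.0361). Asic3, an acid sensor, went from 87.6, 92.6 and 89.7 FPKM to 76.6, 73.3 and 71.2 FPKM (-0.28, adjusted p = 0.00804). The left-out day 1 sample had Trpa1 at 12.59 FPKM, below all day 7 samples, with the left-out day 7 sample at 13.77 FPKM. Asic3 was at 70.16 FPKM in the left-out day 1 sample, below the compared day 7 samples, and at 61.98 FPKM in the left-out day 7 sample. Kcnj10 was at 29.49 and then 11.03 FPKM in this pair, a fall as in the compared samples. Kcnj10 did not pass without any of the day 1 samples or day 7 replicate 1 (adjusted p 0.0804 to 0.128), and Trpa1 passed only without day 1 replicate 4 (0.0570 to 0.127 without the others). Single samples moved these counts, with 2 to 5 genes that fell when any 1 was left out, and 7 and 6 that rose without day 1 replicate 3 or day 7 replicate 2. The number of channel genes that fell was 20 with median centring, 21 with quantile normalization and 1 with all 8 samples.

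**Figure D4:**
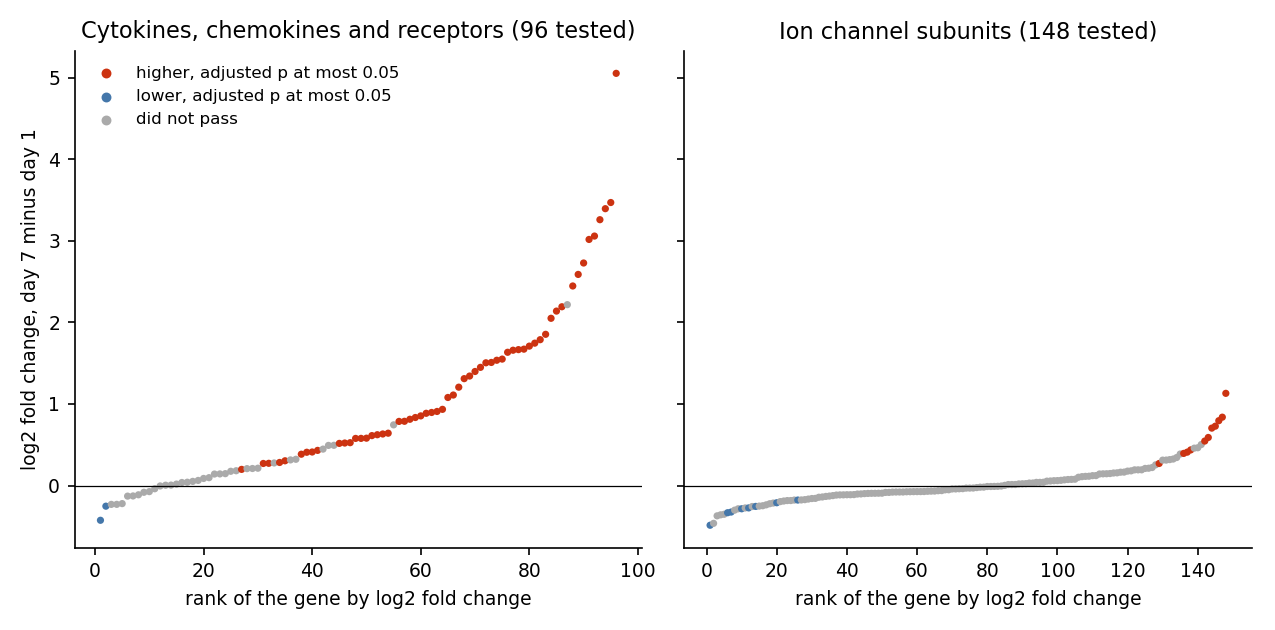
Fold change (y axis, log2 of FPKM + 1, day 7 minus day 1) of 96 cytokine and receptor genes and of 148 ion channel genes, each ranked by its fold change (x axis) and colored by the test at an adjusted p of 0.05. The cytokine class reaches 5.05 with 59 genes that rose, and the channel class stays between -0.49 and 1.13.

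Most neuronal genes changed by small amounts. The pan-neuronal genes summed to 18625 to 19977 FPKM on day 1 and to 16657 to 17660 FPKM on day 7. The left-out samples had 17314 FPKM on day 1 and 11895 FPKM on day 7. Of 20 pan-neuronal genes 0 rose and 2 fell (10%, against 2.04%), with a median of -0.09. Snap25, a protein of synaptic release, went from 699, 723 and 743 FPKM to 605, 594 and 606 FPKM (fold change -0.26, SE 0.0486, adjusted p = 0.0132), and Rbfox3, the NeuN antigen, had -0.23. Snap25 did not pass without day 1 replicate 3 or 4 or day 7 replicate 1 (adjusted p 0.0502 to 0.0790), nor Rbfox3 without these or day 7 replicate 2 (0.0591 to 0.127), and 8 of the 20 genes fell with median centring. Prph had a fold change of -0.26 and did not pass (adjusted p = 0.0940). In limma 0 of the 20 were higher and 7 lower at an unadjusted p under 0.05. Of 24 nociceptor genes 0 rose (0%, against 11.3% of all tested genes) and 3 fell (12.5%, against 2.04%), with a median of -0.06. The number that fell was 1 or 2 with any sample left out, and 0 with all 8 samples in the fit. At an unadjusted p under 0.05 in limma 2 were higher and 4 lower. P2rx3 went from 110, 91.5 and 86.6 FPKM to 112, 119 and 129 FPKM (0.32) and did not pass (limma adjusted p = 0.0799). In the left-out pair P2rx3 was at 101.5 and then 72.5 FPKM. Oprm1 had a fold change of -0.37 and did not pass (adjusted p = 0.266). Of 14 neuropeptide genes 1 rose (7.14%, against 11.3%) and 2 fell (14.3%, against 2.04%). Bdnf, a growth factor that sensory neurons release, fell from 7.71, 7.42 and 6.53 FPKM to 4.65, 3.59 and 4.57 FPKM (-0.64, adjusted p = 0.00700), and Cck, the cholecystokinin gene, rose from 0.74, 0.67 and 0.49 FPKM to 2.15, 2.15 and 2.79 FPKM. Of 21 genes known to change after nerve injury 3 were higher and 2 lower at an unadjusted p under 0.05 in limma, with a median of -0.03. At an adjusted p of 0.05 in limma, 1 rose (4.76%, against 11.3% of all tested genes) and 0 fell (0%, against 2.04%). The 1 was Csf1, the colony-stimulating factor that injured neurons release toward macrophages, from 5.06, 6.01 and 6.02 FPKM to 8.90, 8.93 and 8.05 FPKM (0.53, adjusted p = 0.00606). The other injury genes of largest change, Nts, Npy and Anxa1, had fold changes of 0.81, 0.76 and 0.51. They did not pass (adjusted p of 0.0605, 0.410 and 0.142 in limma). Atf3, Gal and Sox11, injury genes looked up after their values were seen, had fold changes of -0.17, -0.47 and -0.16 and did not pass.

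The glial lists parted. Of 18 Schwann cell and myelin genes, 11 fell (61.1%, against 2.04%) and 0 rose, with a median of -0.32, and no member reached the limit of 1 in size. At an unadjusted p under 0.05 in limma 14 were lower and 1 higher. The number that fell was 6 without day 1 replicate 1, 7 without day 1 replicate 3, day 1 replicate 4 or day 7 replicate 2, and 14 with median centring. Mbp was at 2025, 1756 and 1949 FPKM on day 1 and at 1184, 1037 and 1235 FPKM on day 7, with a fold change of -0.73 (SE 0.0889, adjusted p = 0.00219). Mag, an adhesion protein of the inner myelin layer, and Pmp2, a lipid carrier of myelin, had fold changes of -0.94 and -0.90. Mbp and Mag passed without each sample, while Pmp2 passed only without day 7 replicate 1 (adjusted p 0.0543 to 0.0862 without the others). The left-out samples lay on the same sides, with Mbp at 3188 FPKM on day 1, above the others, and 899.84 FPKM on day 7, below them. Of 20 cholesterol synthesis genes, whose product myelin needs in quantity, 3 fell (15%, against 2.04% of all tested genes) and 0 rose (0%, against 11.3%). At an unadjusted p under 0.05 in limma 9 were lower and 1 higher. With median centring 10 of the 20 fell, and 1 fell without day 1 replicate 1, day 1 replicate 4 or day 7 replicate 2. Among the 3 Cyp51 went from 167, 157 and 148 FPKM to 124, 119 and 117 FPKM (-0.39, adjusted p = 0.00439).

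Satellite glia genes did not share 1 direction. Of 15, 4 rose (26.7%, against 11.3% of all tested genes) and 1 fell (6.67%, against 2.04%), with a median of -0.01. Gfap, a filament protein that glia raise under stress, rose from 8.19, 8.80 and 6.42 FPKM to 15.5, 17.2 and 14.9 FPKM (fold change 0.95, SE 0.111, adjusted p = 0.00185), and Glul, glutamine synthetase, from 108, 102 and 114 FPKM to 146, 155 and 152 FPKM (0.48). In the left-out day 7 sample these stood at 61.1 and 469 FPKM, and in the left-out day 1 sample at 17.2 and 137 FPKM. This day 1 value of Gfap lies within the range of the compared day 7 samples. With all 8 samples in the fit, 0 of the 15 genes rose and 0 fell. Fabp7, a lipid-binding marker of satellite glia, had a fold change of -0.13 (adjusted p = 0.614). Hes5, a target of Notch signals, was called lower, from 6.79, 9.29 and 7.30 FPKM to 4.01, 3.14 and 2.75 FPKM (-1.03, SE 0.141, adjusted p = 0.00357).

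The 8 genes called lower fall into 2 known kinds and 3 single genes. The globin genes Hba1, Hbb and Hba2, which encode the hemoglobin of red cells, had the largest falls. Hba1 was at 46.7, 96.9 and 186 FPKM on day 1 and at 10.4, 16.7 and 30.0 FPKM on day 7, with a fold change of -2.38 (SE 0.532, adjusted p = 0.0271). Hbb was at 37.0, 64.1 and 124 FPKM and then at 8.28, 13.6 and 19.4 FPKM (-2.27, adjusted p = 0.0167). The spread within day 1 was wide, but the days did not overlap. These calls rest on single samples. Without day 1 replicate 3 or day 7 replicate 1 or 2, the adjusted p of Hba1, Hbb and Hba2 lay between 0.0505 and 0.0865, and that of Hba1 was also above the limit without day 1 replicate 4 (0.0653). Of 9 listed red cell genes Hba1, Hbb and Hbb-b1 met the filter, and Hbb-b1 did not pass (adjusted p = 0.0532). The list, which does not hold Hba2, summed to 88.1 to 328 FPKM on day 1 and to 20.2 to 53.5 FPKM on day 7, and Alas2, the heme enzyme of young red cells, was at 0.86 FPKM or less throughout. Globin genes are near copies, and reads may be shared among them. LOC103694857, a locus with no name in the tables, had a fold change of -1.64 and an adjusted p of 0.0717 to 0.123 without any of 4 samples, day 1 replicates 3 and 4 and day 7 replicates 1 and 2. The genes called lower were 3 without day 1 replicate 3, 5 without day 1 replicate 4, 4 without day 7 replicate 2 and 14 without day 7 replicate 4, with the same genes tested. S100a3, a calcium-binding protein, went from 15.6, 13.3 and 16.3 FPKM to 7.65, 5.66 and 7.83 FPKM (-1.003).

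The other kind was the circadian clock, the loop of transcription factors in which ARNTL and CLOCK bind E-boxes and drive their own repressors. Dbp, an output gene of the loop, was at 34.2, 41.7 and 48.5 FPKM on day 1 and at 14.1, 11.03 and 22.2 FPKM on day 7 (fold change -1.38, SE 0.237, adjusted p = 0.00978). Nr1d1, the repressor REV-ERB alpha, went from 27.2, 27.3 and 26.1 FPKM to 11.9, 8.33 and 20.3 FPKM (-1.03, adjusted p = 0.0449). Arntl, which NR1D1 represses, rose from 3.34, 3.28 and 3.10 FPKM to 6.92, 7.51 and 4.48 FPKM (0.76, adjusted p = 0.0215). Of 16 clock genes 5 fell (31.2%, against 2.04% of all tested genes) and 2 rose (12.5%, near the 11.3% of all tested genes). With all 8 samples in the fit, 2 of 17 clock genes fell and 1 rose. The list summed to 187 to 214 FPKM in the compared day 1 samples and to 139 to 163 FPKM in the compared day 7 samples. It summed to 206 FPKM in the left-out day 1 sample and to 223 FPKM, the highest of the 8, in the left-out day 7 sample. In the left-out pair Dbp was at 43.6 and then 22.5 FPKM, and Nr1d1 at 29.0 and then 19.95 FPKM. For Dbp, Nr1d1, Ciart and Arntl, day 7 replicate 4 was the compared sample nearest to day 1. Without it the adjusted p of Nr1d1 was 0.00116 and that of Arntl 0.000376, and without any other sample they were 0.0714 to 0.127 and 0.0617 to 0.0765. Of the 16 genes 1 or 2 fell without any sample but day 7 replicate 4. The hour of day at which ganglia were taken is not given in the sources used here, and its part in these values was not tested. Ciart, a repressor of the loop, went from 2.55, 2.21 and 2.83 FPKM to 0.77, 0.63 and 1.43 FPKM (-0.88, SE 0.161, adjusted p = 0.0124, and 0.0516 and 0.0546 without day 1 replicate 1 or 4). Its promoter (GRCr8, chr2:186112197-186112496, minus strand, from RefSeq) is printed because it holds 3 copies of the E-box CACGTG, in capitals.
Ciart: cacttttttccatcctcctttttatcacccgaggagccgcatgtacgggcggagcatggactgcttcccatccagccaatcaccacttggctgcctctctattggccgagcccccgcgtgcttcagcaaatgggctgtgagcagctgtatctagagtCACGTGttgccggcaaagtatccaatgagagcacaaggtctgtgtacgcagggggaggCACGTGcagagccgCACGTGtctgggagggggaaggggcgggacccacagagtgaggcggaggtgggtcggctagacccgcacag
The copies begin 93, 35 and 21 bases before the start. The E-box reads the same on both strands and is in 6.42% of all promoters, in 9.82% of the matched tested genes and in 5 of 14 matched clock genes.

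Among the falls below the limit of 1, those of the lowest p were Lect1, which encodes chondromodulin of cartilage, and Svip, an inhibitor of protein breakdown at the endoplasmic reticulum. Lect1 went from 137, 143 and 142 FPKM to 72.3, 68.7 and 79.9 FPKM (-0.93, SE 0.0615, adjusted p = 0.000175). Svip went from 100.2, 89.3 and 89.9 FPKM to 61.7, 57.1 and 65.0 FPKM (-0.60, adjusted p = 0.00162).

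**Figure D5:**
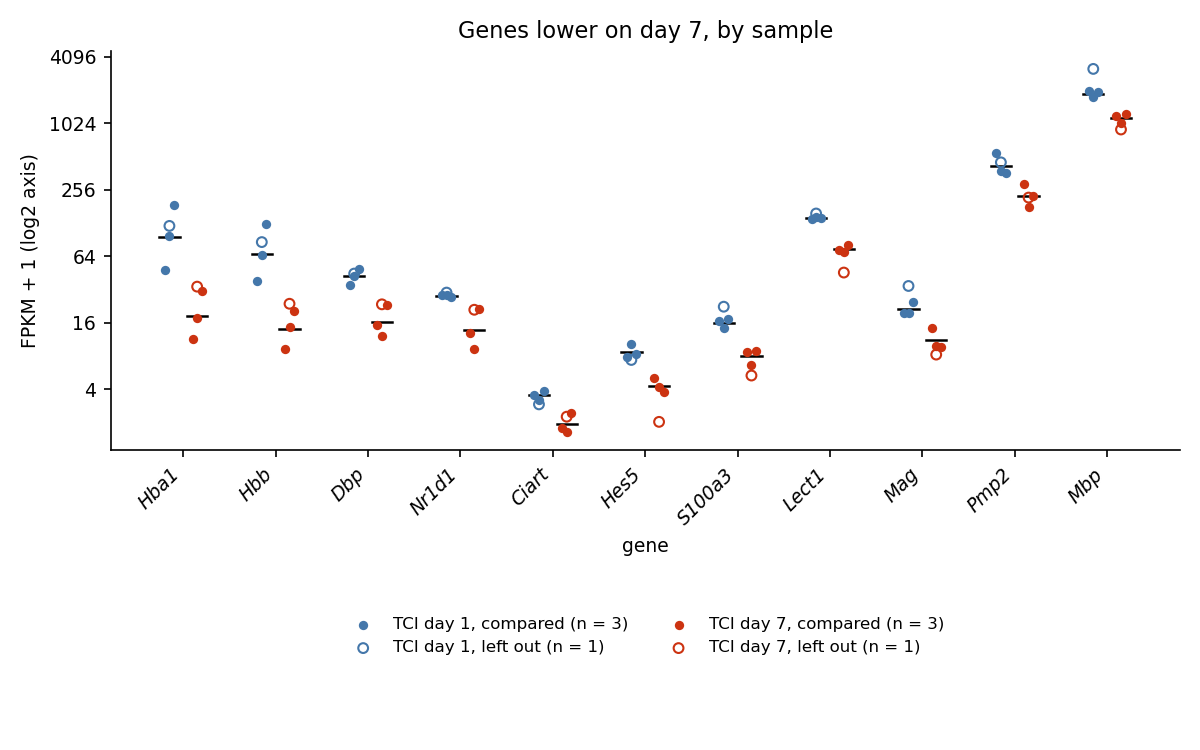
FPKM + 1 on a log2 axis for globin (Hba1, Hbb), clock (Dbp, Nr1d1, Ciart), single (Hes5, S100a3, Lect1) and myelin genes (Mag, Pmp2, Mbp) that fell, with the 3 compared samples of each day as filled points, the left-out sample as an open point and a bar at the mean of log2(FPKM + 1) of the 3. The compared samples of the days do not overlap in any of the 11, while the day 1 values of Hba1 spread from 46.7 to 186 FPKM.

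Vessel and connective tissue genes rose in part. Of 15 endothelial genes 4 rose (26.7%, against 11.3% of all tested genes). They were led by the adhesion molecule Icam1, which went from 2.73, 2.85 and 2.49 FPKM to 9.17, 9.56 and 10.1 FPKM (fold change 1.52, SE 0.0691, adjusted p = 3.13e-05). Cdh5, the cadherin of endothelial junctions, was also called, with means of 5.38 FPKM on day 1 and 12.2 FPKM on day 7 (1.03, adjusted p = 0.0127, and 0.0542 and 0.0528 without day 1 replicate 3 or 4). The leukocyte adhesion molecules Icam2 and Vcam1 had 0.84 and 0.77. The other 11 did not pass, among them Pecam1, Kdr and Cldn5, looked up after their values were seen, with 0.27, 0.07 and 0.05. Of 18 fibroblast and matrix genes 5 rose (27.8%, against 11.3%) and 2 fell (11.1%, against 2.04%), the latter being the basement membrane collagens Col4a1 and Col4a2. Dcn, the small proteoglycan decorin, went from 228, 208 and 267 FPKM to 493, 456 and 593 FPKM (1.13, adjusted p = 0.00133), and Fn1, fibronectin, had 1.43 (adjusted p 0.101 to 0.115 without day 1 replicate 1 or 3 or day 7 replicate 1 or 2). The number of the 18 that rose was 2 without day 1 replicate 1, 3 without day 1 replicate 3, day 1 replicate 4 or day 7 replicate 2, and 10 without day 7 replicate 4. The collagens did not pass without any of the day 1 samples or day 7 replicate 1 (0.0567 to 0.107). Col1a1, the main collagen of fibroblasts, had -0.11. Genes of the leptomeninges, the inner membranes that cover nerve roots, were listed after their values were seen. They summed to 340 to 455 FPKM on day 1 and to 950 to 1151 FPKM on day 7, and their part in the fibroblast values and in that of Kcnj13, which is on their list, was not tested. Of 13 matrix proteases and inhibitors 4 rose (30.8%, against 11.3%). Among them Timp1 went from 49.2, 60.0 and 54.2 FPKM to 88.5, 89.4 and 96.8 FPKM (0.74).

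Housekeeping classes differed from each other. Of 83 ribosomal protein genes 67 rose (80.7%, against 11.3%) by small amounts, with a median of 0.35 and only Rpl9 called. Rps12 went from 221, 214 and 224 FPKM to 337, 290 and 330 FPKM (fold change 0.53, SE 0.0650, adjusted p = 0.00219). Rpl9 was listed at 0, 0 and 4.11 FPKM on day 1, which for a gene of every cell may be a failed estimate. Rpl9 passed only without day 1 replicate 4 (adjusted p 0.0825 to 0.141 without the others). With median centring 35 of the 83 rose, and 42 and 40 rose without day 1 replicate 1 or 3. Of 79 respiratory chain genes 0 rose and 0 fell at an adjusted p of 0.05 in limma, with 2 higher and 0 lower at an unadjusted p under 0.05, and the median was -0.02. Of 21 cell cycle genes 7 rose (33.3%, against 11.3%), with a median of 0.53, while 3 or 4 rose without any sample but day 7 replicate 4 and 16 without that one. Mcm5, part of the replication helicase, went from 0.98, 1.17 and 0.78 FPKM to 2.73, 3.35 and 2.12 FPKM (0.91). Of 12 iron genes 3 rose (25%, against 11.3%), namely the macrophage metal transporter Slc11a1 (2.34), ceruloplasmin Cp (1.96) and transferrin Tf (1.18). Of 19 immediate early genes 4 rose (21.1%, against 11.3%) and 1 fell (5.26%, against 2.04%), with Zfp36, which shortens the life of cytokine mRNAs, at 0.71. Without day 1 replicate 1, day 1 replicate 3 or day 7 replicate 2, 2 of the 19 rose. Of 16 genes of the glucocorticoid response 4 rose (25%, against 11.3%), and 2 without those same 3 samples, with Sult1a1, a sulfotransferase, at 1.15.

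Muscle, fat and most epithelial genes, from tissues that could enter with the dissection, were low in the compared samples, while red cell and leptomeningeal genes were not, as given above. Muscle genes summed to 17.4 to 19.2 FPKM on day 1 and to 19.2 to 26.4 FPKM on day 7. Acta1 and Ckm, the actin and creatine kinase of muscle, had fold changes of -0.09 and -0.03, while Tnnt3 and Mylpf rose by 0.81 and 0.62 and stayed at 2.77 FPKM or less. Mylpf did not pass without any of the day 1 samples or day 7 replicate 1 (adjusted p 0.0880 to 0.114). In the left-out day 7 sample the muscle list summed to 28741 FPKM, with Acta1 at 6693 FPKM. Fat genes summed to 11.3 to 14.1 FPKM and to 20.7 to 23.6 FPKM, with Adipoq at 0.05 FPKM or less and the complement protease Cfd, which macrophages also make, the only 1 that rose (1.43, adjusted p 0.0583 to 0.0906 without day 1 replicate 1 or 3 or day 7 replicate 1 or 2). Epithelial genes, which a carcinoma could bring, summed to 92.3 to 93.6 FPKM and to 71.0 to 86.4 FPKM, 0 of 5 rose against 1 higher and 1 lower at an unadjusted p under 0.05 in limma, and Epcam and Krt18 were at 0.58 and 0.15 FPKM or less. Most of this sum is Cdh1, the E-cadherin that glia of the ganglion also make, which fell from 81.0, 77.9 and 76.7 FPKM to 65.1, 67.8 and 57.4 FPKM (-0.31, adjusted p 0.0584 to 0.0937 without any of the day 1 samples or day 7 replicate 1). Muscle, fat, red cell and epithelial genes moved between libraries as given, and their part in the other results was not tested.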

How the data were processed

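Total RNA of pooled L3-L5 ganglia was sequenced, 1 rat per sample. The authors removed low-quality, adaptor and N-rich reads, mapped the rest with HISAT and Bowtie2, quantified genes with RSEM and deposited FPKM with 2 decimals. The submitters' processing notes also name CASAVA 1.4. The genome build and annotation are not given in the sources used here. Sample groups come from the labels.

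FPKM are not counts, so log2(FPKM + 1) was tested with limma 3.58.1 (R 4.3.3, empirical Bayes with a mean-variance trend, 2-sided) on 3 against 3 samples, with genes of at least 1 FPKM in at least 3 samples and Benjamini-Hochberg adjustment over 13645 genes. Exact permutation of 3 against 3 cannot go below p = 0.1 and was not used. The script was tested on simulated data. The study gives an average number of reads per sample, but the files hold no counts per gene, and so no counting interval can be had.

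Gene lists and members were chosen with earlier results of these data known. Named genes are the 10 largest rises among called genes without overlap of the days, the 8 called lower, the 2 falls of lowest p with a fold change of -0.5 or below, the 4 tested members of largest change in each list, defining markers of other tissues and of the ganglion, and the most abundant cytokine gene. Some genes that this rule names are not reported here. Others are said to be chosen after their values were seen. RefSeq promoters (GRCr8) were matched by gene ID.

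The labels number the samples of each day, but the animals differ. Deviations of same-numbered samples from their group means correlated at 0.06, 0.00, -0.04 and -0.04, so numbers were not taken as pairs. Alternatives were other samples, scaling, filters, pseudocounts, cut-offs, a replicate block and leaving out each sample. Leaving out a sample with the same genes tested was added after seeing the data.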

Additional observations from a re-analysis of the deposited data

Results flagged for a closer look

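Within each day, a gene or list was looked at again where its highest or lowest of 4 samples, the left-out sample included, stood apart from the nearest other by more than Dixon's critical value allows. Chance gives this for about 1 in 20 groups of 4. On day 1, 4 of 131 named genes and 2 of 36 lists stood out, and on day 7, 16 of 132 genes and 7 of 36 lists. The left-out day 7 replicate 3 accounted for 13 of the 16 genes and for all 7 lists, while the left-out day 1 replicate 2 accounted for 0 genes and 1 list.

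Day 7 replicate 3 stood highest in muscle fiber genes, with Acta1 at 6693.26 FPKM, Ckm at 3628.34 FPKM, Tnnt3 at 3394.69 FPKM, Mylpf at 1718.25 FPKM and the slow myosin gene Myh7 at 16.62 FPKM. It also stood highest in Gbp2 at 198.34 FPKM and Cxcl11 at 23.4 FPKM, both induced by interferon-gamma, in the glial genes Gfap at 61.1 FPKM and Glul at 469.26 FPKM, and in the cell cycle inhibitor gene Cdkn1a at 17.43 FPKM. It stood lowest in Snap25 at 427.87 FPKM, Rbfox3 at 41.97 FPKM and the sterol enzyme gene Cyp51 at 85.56 FPKM.

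By the mean log2(FPKM + 1) of a list, the same sample stood highest for muscle (8.09), interferon-gamma genes (4.69), immediate early genes (3.24), clock genes (3.04) and fat (1.77), and lowest for nociceptor genes (4.55) and pan-neuronal genes (7.42). In the day 1 samples, replicate 3 stood apart in the cell cycle list (1.38) and the left-out replicate 2 in the satellite glia list (5.82).

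Single genes also stood apart in compared samples. C1qb was lowest in day 7 replicate 1 at 62.16 FPKM, and Cox6b2, a respiratory chain subunit, was highest in day 7 replicate 2 at 3.04 FPKM. Csf1 was lowest in day 1 replicate 1 at 5.06 FPKM, and Ubd was highest in it at 1.36 FPKM. Rpl9 was at 4.11 FPKM in day 1 replicate 4 and listed at 0 in the other day 1 samples. Ndufa10l1, a respiratory chain gene near in sequence to Ndufa10, was listed at 0 in day 1 replicate 4 and stood highest in day 7 replicate 4 at 36.76 FPKM.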

How the results depend on the processing

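The genes called higher, 486 in all, numbered between 344 and 650 under all 8 samples, all 4 groups in the fit, no trend, quantile normalization, median centring, no filter, a pseudocount of 0.1 and the replicate block with 6 or all 8 samples. They were 207 with a mean of at least 5 FPKM, 242 at an adjusted p of 0.001 and 1545 without a fold limit, and between 260 and 550 with a sample left out. Genes called lower were 19 with all 8 samples or quantile normalization, 16 with median centring, 5 with no filter, 17 with a pseudocount of 0.1, 18 with the block and all 8 samples, 0 at 0.001, 278 without a fold limit, and 3 to 14 with a sample left out. Genes that rose were 837 with a mean of at least 5 FPKM and 466 and 870 with the block in 6 and 8 samples (763 to 1879 with a sample left out). Genes that fell were 171 with all 8 samples, 904 and 944 with quantile normalization and median centring, and 21 and 109 with the block (95 to 415). Cytokine genes that rose were 29 with a mean of at least 5 FPKM and 35 with the block in 6 samples (28 to 60). Ion channel genes that rose were 5 with quantile normalization, 4 with a mean of at least 5 FPKM, and 1 and 5 with the block (4 to 14). Ion channel genes that fell were 1 with all 8 samples, 5 with all 4 groups, no trend or a mean of at least 5 FPKM, 21 and 20 with quantile normalization and median centring, 3 with no filter, and 1 and 1 with the block (2 to 5). The higher filter and the filter set anew without a sample test fewer genes, and the cause of the other moves was not tested. The block in 6 samples leaves 1 residual degree of freedom, and the numbers share no animal. The named genes that changed sign, 7 in all, had not passed in the comparison itself. They were Cd22 (-0.038, quantile normalization), Myh7 (-0.098 and -0.017, quantile normalization and median centring), Kit (0.034 and 0.019 without day 1 replicate 1 or day 7 replicate 4, and -0.075 at the lowest), Fabp7 (0.065 with all 8 samples, with or without the block), Ndufa10l1 (0.51, block in 6 samples), Acta1 (2.50 with all 8 samples, with or without the block, 0.00525 without day 7 replicate 1 and -0.24 at the lowest with a sample left out) and Ckm (2.63 with all 8 samples, with or without the block, 0.14 with the block in 6, 0.062 and 0.003702 without day 1 replicate 3 or 4, 0.092 and 0.040 without day 7 replicate 1 or 2, and -0.23 at the lowest). The counts behind low FPKM are unknown, so that differences below a few FPKM are the least certain.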

Other observations

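Of the 486 genes called higher, 145 were in a gene list of the report and 341 in no list, among them 28 loci without a name. The groups that follow were put together after the values were seen, so that their counts describe the data and test nothing.

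Genes of the leptomeninges, with transporters and retinoid enzymes known from the membranes around brain and nerve roots, were the largest of these groups. Of 25 listed genes 24 met the filter, 3 of them through day 7 alone. Of these 24, 23 rose (95.8%, against 11.3% of all tested genes) and 18 were called (75%, against 3.56%). The median fold change was 1.28 on the log2 scale. Their summed level was 432, 340 and 455 FPKM in day 1 replicates 1, 3 and 4 and 950, 1064 and 1151 FPKM in day 7 replicates 1, 2 and 4. The left-out samples lay nearer to each other, with 516 FPKM on day 1 and 746 FPKM on day 7. Slc6a20, an amino acid transporter, had a fold change of 2.47, and Slc13a4, a sulfate transporter, of 1.94, with means of 3.55 FPKM on day 1 and 16.3 FPKM on day 7. Igfbp6, a binding protein of insulin-like growth factors, was the more abundant, with means of 91.4 and 306 FPKM and a fold change of 1.73. Aldh1a2, which makes retinoic acid, had 1.77, Slc6a13, a GABA transporter, 1.48, the transcription factor gene Foxc1 1.34 and Ptgds, the prostaglandin D2 synthase, 1.12. Between 19 and 23 of the 24 rose with a sample left out and the same genes tested.

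Further groups of white cell genes moved the same way. How many of their members met the filter through day 7 alone was not counted. All 6 genes of the phagocyte NADPH oxidase rose (against 11.3% of all tested genes) and 5 were called (against 3.56%), with a median of 1.66. Cybb, its catalytic chain, was at 1.25, 0.91 and 1.15 FPKM on day 1 and at 9.71, 11.9 and 5.83 FPKM on day 7, with a fold change of 2.23, and Rac2, its small GTPase, had 3.11. The 4 genes of the beta 2 integrins, which hold leukocytes to vessel walls, were all called (against 3.56%), with Itgal at 2.79 and Itgb2 at 2.12. Of 12 Toll-like receptor genes 8 met the filter and 7 rose (against 11.3% of all tested genes), with a median of 1.09. Of 7 GIMAP genes, GTPases of lymphocytes, 5 rose (against 11.3%) and 3 were called (against 3.56%).

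Myelin genes outside the Schwann cell list fell as well. All 5 looked up passed as lower (against 2.04% of all tested genes), with a median of -0.55. Ugt8, which makes the galactolipids of myelin, had a fold change of -0.78, the myelin claudin gene Cldn19 -0.62, and Gjb1, the connexin of Schwann cells, -0.46.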
